A study of Mus musculus with 50 samples.

Results

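The Dlk1-Meg3 cluster is an imprinted stretch of mouse chromosome 12. It is described here through 6 of its annotated genes, out of 37310 genes in the deposited RNA tables: the protein genes Dlk1 and Rtl1, the long noncoding RNA genes Meg3, Rian and Mirg, and the predicted lincRNA gene Gm17639, which lies opposite the end of Meg3. The 6 genes were chosen by name with their counts in these libraries already known, so their own differences between groups are given as values with errors and no p-values, and a call made at them by the fit over all genes is counted but not read as support. RNA sequencing was done on J1, a line of mouse embryonic stem (ES) cells from strain 129S4/SvJae. All cells were untreated and were kept on gelatin in medium with serum and LIF, a cytokine that holds back differentiation. Wild type cells were compared with KO1 and KO2, both of genotype NSD1-/-, with 2 libraries per group. H3K36me2, a mark of histone H3, is placed by NSD1. The labels state neither how the knockout lines were made, nor whether each is 1 clone, nor whether the 2 libraries of a group are from separate cultures. The p-values thus rest on a spread between libraries that may be technical. In bulk RNA, fewer cells that express a gene and less of its RNA per cell cannot be told apart.

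In an imprinted cluster, each imprinted gene is read mainly from the copy inherited from 1 parent, and DNA methylation set in the germ line marks which parent a copy came from. Here Dlk1, a membrane protein of the Notch ligand family, and Rtl1, a protein derived from a retrotransposon and needed in the placenta, are read from the paternal chromosome. Meg3, an antisense transcript across Rtl1, Rian and Mirg are read from the maternal chromosome, all on the other strand from Rtl1, and they carry many microRNAs (miRNAs) and small nucleolar RNAs (snoRNAs) within them. A methylated region between Dlk1 and Meg3 controls both sides, and the maternal transcripts are known to differ in level between pluripotent stem cell lines.

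The miRNAs of the plus strand show which pieces of that strand lie opposite counted genes, so they come before the values. RefSeq (GRCm38.p6) lists 111 mature miRNAs in the span from Dlk1 to Mirg, and 105 of them lie on the plus strand. Each was placed on mm9, the build of the tables, by its exact sequence there, and 110 matched once. Of those on the plus strand, 19 lie opposite a minus-strand gene of the tables, 11 of them opposite the coding part of Rtl1. One mature miRNA is shown for each of the 6 miRNA genes opposite Rtl1, 5′ to 3′, with the seed (bases 2 to 8, which pair with target mRNAs) in capitals.
mmu-miR-431-5p: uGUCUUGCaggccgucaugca
mmu-miR-433-3p: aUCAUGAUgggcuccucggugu
mmu-miR-127-3p: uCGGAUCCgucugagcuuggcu
mmu-miR-434-3p: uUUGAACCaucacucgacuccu
mmu-miR-432: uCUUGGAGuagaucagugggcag
mmu-miR-136-5p: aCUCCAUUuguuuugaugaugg
Their mm9 positions on the plus strand are chr12:110828669-110828689 for miR-431-5p, chr12:110829991-110830012 for miR-433-3p, chr12:110831098-110831119 for miR-127-3p, chr12:110832775-110832796 for miR-434-3p, chr12:110833216-110833238 for miR-432 and chr12:110833541-110833562 for miR-136-5p. All 6 miRNA genes lie inside the coding exon of Rtl1 (chr12:110828382-110833613, minus strand, 5232 coding bases for 1744 residues), where their annotated hairpins cover 563 bases. These miRNAs are therefore fully complementary to Rtl1 mRNA, as the minus strand of mm9 shows at 2 of the sites, with the bases that pair with the seed in capitals.
Rtl1 site of mmu-miR-127-3p: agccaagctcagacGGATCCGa
Rtl1 site of mmu-miR-136-5p: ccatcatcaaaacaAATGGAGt
The span holds 102 distinct seeds, and 9 are shared by more than 1 miRNA, such as AUGUAAC in miR-379-3p and miR-411-3p. No seed of the 6 printed miRNAs is shared with another miRNA of the span.

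The other 4 minus-strand genes of the span, further downstream, each a predicted miRNA gene of about the length of a hairpin, also lie opposite plus-strand miRNAs, and 1 miRNA is shown for each.
mmu-miR-299a-5p, in AC121784.4: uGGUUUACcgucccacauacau
mmu-miR-380-3p, in AC121784.3: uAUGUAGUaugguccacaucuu
mmu-miR-376a-3p, in AC121784.2: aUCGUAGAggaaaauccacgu
mmu-miR-409-3p, in AC121784.1: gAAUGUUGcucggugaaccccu
They lie at chr12:110948854-110948875, chr12:110950052-110950073, chr12:110962034-110962054 and chr12:110981414-110981435 on the plus strand of mm9, in that order. The last is inside the span of Mirg, the miRNA host gene, and the other 3 lie between Rian and Mirg.

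Nearly all counts of the cluster fell on genes annotated on the minus strand. The tables hold 85 genes between the start of Dlk1 and the end of Mirg. The 6 on the minus strand held 4381 counts over the 6 libraries, 99.4% of the total, and the 79 on the plus strand held 26, or 0.590%. All 52 plus-strand miRNA genes and all 23 plus-strand snoRNA genes were at 0. The plus-strand members have 35118 exon bases, against 7585 for Gm17639 and Rtl1. The same holds beyond the cluster. Apart from 1 locus with ribosomal RNA sequence, AY036118, 85.7% to 87.8% of the counts of a library lay at the 4887 genes with an exon opposite. The counts were therefore read as fragments from the strand opposite to the counted gene. By that reading, counts at Gm17639 and Rtl1 report on plus-strand RNA of the cluster at those positions. The values below are named by the counted gene, and parental origin was not measured.

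**Figure D1:**
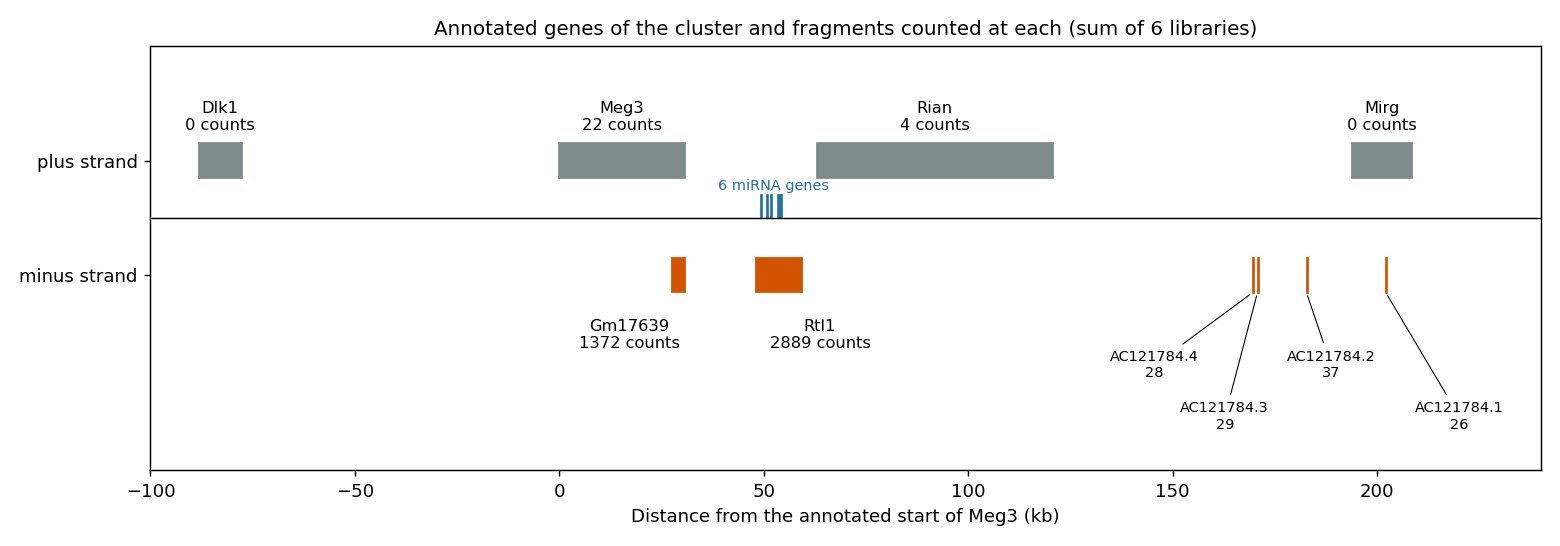
Annotated genes of the cluster by strand, plotted against distance from the annotated start of Meg3 in kb, with the counts summed over the 6 libraries. Gm17639 held 1372 counts and Rtl1 2889 on the minus strand, against 22 for Meg3, 4 for Rian and 0 for Dlk1 and Mirg on the plus strand; blue ticks mark the 6 miRNA genes opposite Rtl1, and orange ticks the 4 predicted miRNA genes.

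Fragments at Rtl1 were most abundant in KO1, intermediate in wild type and least abundant in KO2. Rtl1 (ENSMUSG00000085925.2) lies on the minus strand of chromosome 12 from 110827404 to 110838540 in mm9, with 6357 exon bases, and the annotated gene with the largest overlap opposite it is Mir433, with 124 bases. Its counts were 515 and 499 for wild type, 791 and 628 for KO1, and 222 and 234 for KO2. Scaled to the library, they were 451 and 424 CPM (counts scaled by library size and TMM factor) for wild type, 640 and 527 for KO1, and 198 and 193 for KO2. Every KO1 library was above, and every KO2 library below, both wild type libraries. How many of all tested genes show such an order was not counted, and nothing is read from it. The group means were 437 ± 18.6 CPM for wild type, 583 ± 79.9 for KO1 and 195 ± 3.49 for KO2 (SD, n = 2 each). In edgeR's fit, the log2 fold change from wild type was 0.42 ± 0.08 (SE) in KO1, a 1.33-fold higher level, and -1.16 ± 0.10 in KO2, a 2.24-fold lower level. Between the knockout lines it was 1.58 ± 0.09, a 2.99-fold higher level in KO1. Without KO1 replicate 1, the higher of its libraries, the difference of KO1 from wild type was 0.28 ± 0.10.

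Among all 5034 tested genes, a change of at least the size seen at Rtl1 was found in 3.95% for KO2 against wild type, in 2.38% for KO1 against KO2, and in 33.8% for KO1 against wild type. The KO1 value is thus of a size that many genes show, while the KO2 value is near the end of the distribution. These shares describe the position of Rtl1 among all genes and are no test of it.

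Gm17639 (ENSMUSG00000090521.1), a window onto the last part of Meg3, was at the wild type level in KO1 and lower in KO2. It lies on the minus strand from 110806838 to 110809933, and all of its 1228 exon bases are opposite exons of Meg3. Its counts were 250 and 257 for wild type, 297 and 241 for KO1, and 165 and 162 for KO2. This is 219 and 218 CPM for wild type, 240 and 202 for KO1, and 147 and 134 for KO2. Both KO2 libraries were below all 4 others, and the KO1 libraries lay on either side of wild type. The group means were 219 ± 0.176 CPM, 221 ± 26.9 CPM and 140 ± 9.54 CPM (SD, n = 2 each). The log2 fold change was 0.02 ± 0.11 (SE) in KO1 and -0.64 ± 0.12 in KO2 in edgeR's fit, and 0.66 ± 0.12 for KO1 against KO2. A change of at least that size was found in 95.8% of tested genes for KO1 against wild type and in 18.7% for KO2.

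**Figure D2:**
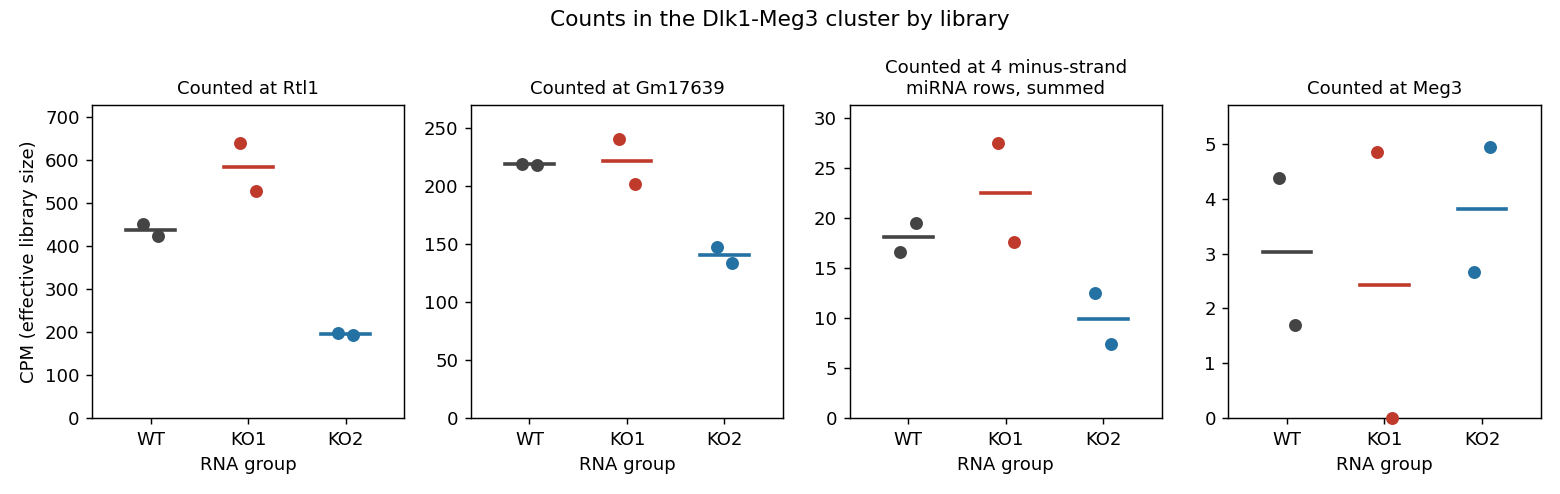
Level of fragments at Rtl1, Gm17639, the sum of 4 predicted miRNA genes, and Meg3 in each library, in CPM on axes that start at 0; points are single libraries in the groups WT, KO1 and KO2, and horizontal bars are group means. Rtl1 means are 437, 583 and 195 CPM and Gm17639 means 219, 221 and 140 CPM, with KO2 lowest at both.

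Meg3 itself, the noncoding RNA that gives the cluster part of its name, held few counts on its annotated strand. It spans 110779211 to 110809936 on the plus strand, with 18089 exon bases. Counts were 5 and 2 for wild type, 6 and 0 for KO1, and 3 and 6 for KO2, so the groups overlapped. The ratio of summed counts scaled to library size was 0.818 for KO1 over wild type (exact 95% interval 0.227 to 2.84) and 1.28 for KO2 over wild type (0.423 to 4.03). At this depth no difference was detectable on that strand. By the reading of strand given above, these counts bear on the strand opposite to Meg3 RNA, and Meg3 RNA is measured here only where Gm17639 lies opposite it.

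Dlk1 (plus strand, 110691033 to 110701546, 5657 exon bases) and Mirg (plus strand, 110973191 to 110987665, 3175 exon bases) had 0 counts in all 6 libraries. A count of 0 allows an expected count of up to 3 (95% upper limit), which is 2.43 to 2.67 CPM in these libraries. Rian, the host gene of the snoRNAs (plus strand, 110842155 to 110899919, 8197 exon bases), held 2 and 1 counts for wild type, 0 and 0 for KO1, and 0 and 1 for KO2. No gene of the tables lies opposite their exons by the overlap rule used here, so by that reading their RNA was not measured, and these low counts say nothing of whether Dlk1, Rian or Mirg is expressed. These intervals and limits cover counting error only.

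The sequence at the start of Meg3 is shown because both Gm17639 and Rtl1 lie downstream of it. RefSeq (GRCm38.p6) gives the sequence from 250 bases before to 50 after the upstream start of Meg3 as chr12:109540746-109541045, plus strand, with the hexamer bound by the imprint factor ZFP57 when methylated (TGCCGC, searched on both strands, here as its reverse complement) in capitals.
Meg3 promoter: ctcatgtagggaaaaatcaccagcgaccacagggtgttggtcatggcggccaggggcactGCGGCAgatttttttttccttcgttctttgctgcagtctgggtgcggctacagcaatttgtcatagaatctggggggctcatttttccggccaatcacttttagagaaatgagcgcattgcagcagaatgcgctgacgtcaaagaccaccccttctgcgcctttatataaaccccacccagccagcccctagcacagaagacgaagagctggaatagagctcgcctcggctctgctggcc
This window has 13 CpG sites and 1 match. Windows of that length hold the hexamer at 3813 of 32851 starts (11.6%), and their median CpG count is 7. The windows of Dlk1 (9 CpG), Mirg (10 CpG), Rian (0 CpG) and the second start of Meg3 (1 CpG) hold none. Methylation and binding at these windows were not analysed here.

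Gm17639 and Rtl1 did not move by the same factor. Within a library, where scaling cancels out, there were 2.06 and 1.94 counts at Rtl1 for each count at Gm17639 in the wild type libraries, 2.66 and 2.61 for KO1, and 1.35 and 1.44 for KO2. The means were 2.0 ± 0.0837, 2.63 ± 0.0407 and 1.39 ± 0.0700 (SD, n = 2 each). The 3 groups did not overlap, but how often this holds for other pairs of genes was not counted. As a share of the counts of both genes, Rtl1 took 67.3% (Wilson 95% interval 63.9 to 70.6) and 66.0% (62.6 to 69.3) in wild type. The share was 72.7% (70.0 to 75.3) and 72.3% (69.2 to 75.1) in KO1, and 57.4% (52.4 to 62.2) and 59.1% (54.2 to 63.8) in KO2. Per kb of exon, the level at Gm17639 exceeded that at Rtl1 in every library. Levels in single libraries ranged from 109 to 196 CPM per kb at Gm17639 and from 30.3 to 101 CPM per kb at Rtl1. How much of the Rtl1 exons a plus-strand transcript covers is not annotated, so the levels per kb of the 2 genes may not be on the same footing.

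**Figure D3:**
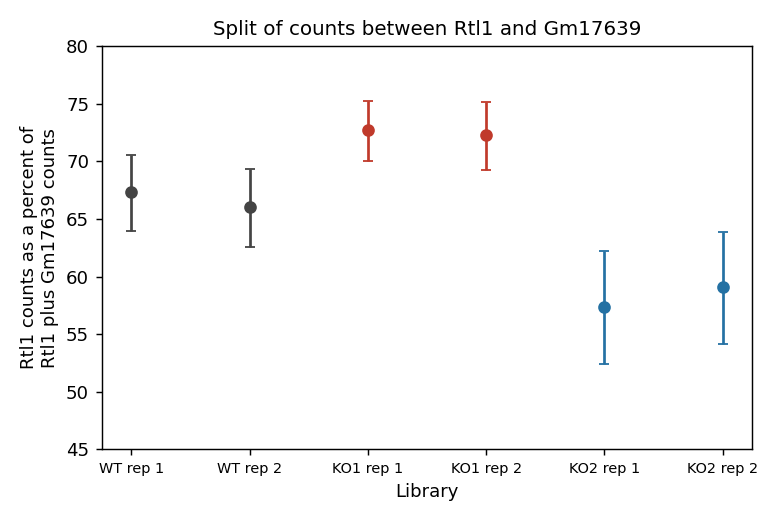
Share of the counts at Rtl1 and Gm17639 together that lay at Rtl1, in percent, for each library, on an axis that does not start at 0, with Wilson 95% intervals as bars (counting error only). The KO1 libraries are highest (72.7% and 72.3%), wild type is between (67.3% and 66.0%) and the KO2 libraries are lowest (57.4% and 59.1%).

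The 4 predicted miRNA genes, which did not enter the choice of members, had too few counts for the fit, and by the reading of strand above they are the only genes of the tables that see plus-strand RNA beyond Rian. AC121784.4 (110948819 to 110948935, opposite miR-299a) had 4 and 6 counts for wild type, 6 and 2 for KO1, and 6 and 4 for KO2. AC121784.3 (110949989 to 110950100, opposite miR-380) had 6 and 6, 9 and 3, and 2 and 3 counts in the same order. The groups overlapped at AC121784.4, while at AC121784.3 both KO2 libraries were below wild type and KO1 lay on either side of it. AC121784.2 (110961966 to 110962085, opposite miR-376a) had 5 and 7 counts for wild type, 11 and 9 for KO1, and 4 and 1 for KO2. AC121784.1 (110981368 to 110981447, opposite miR-409) had 4 and 4, 8 and 7, and 2 and 1 counts. At both, KO1 was above and KO2 below wild type in every library, in the order seen at Rtl1. At AC121784.2 the scaled ratio to wild type was 1.59 for KO1 (exact 95% interval 0.741 to 3.57) and 0.414 for KO2 (0.114 to 1.26). At AC121784.1 it was 1.79 (0.712 to 4.87) and 0.372 (0.0636 to 1.55). All of these intervals include equal levels. How many other genes show this order was not counted, and nothing is read from it.

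Summed over these 4 genes, the counts were 19 and 23 for wild type, 34 and 21 for KO1, and 14 and 9 for KO2, or 18.1 ± 2.07, 22.5 ± 6.99 and 9.95 ± 3.58 CPM (SD, n = 2 each). The KO2 libraries were below all others, and the KO1 libraries overlapped with wild type. The ratio of the summed counts scaled to library size was 0.544 for KO2 over wild type (exact 95% interval 0.312 to 0.925), 1.25 for KO1 over wild type (0.821 to 1.91) and 2.30 for KO1 over KO2 (1.39 to 3.92). The intervals cover counting error only, and the spread between the libraries of KO1 is not in them.

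Of the 6 members, 2 passed the filter on low counts, Rtl1 and Gm17639, each with at least 162 counts in every library. A call means a p under 0.05 in edgeR's quasi-likelihood test, after Benjamini-Hochberg adjustment over the 5034 tested genes. For KO1 against wild type, 1 of the 2 was called (Rtl1), where 9.79% of all tested genes were (3.46% higher and 6.34% lower). For KO2 against wild type both were called, both lower, against 8.98% of all genes (5.01% higher and 3.97% lower). For the mean of the lines against wild type both were called, as lower, against 6.62% (2.72% higher and 3.89% lower). For KO1 against KO2 both were called, as higher in KO1, against 19.3% (7.93% higher and 11.4% lower). Both members have a gene opposite, and tested genes of that kind were called more often. The edgeR shares for them were 15.5% in KO1, 13.9% in KO2, 10.8% in the mean of the lines and 27.5% between the lines. Since the members were chosen with these counts known, nothing is read from these counts of calls. The call of Rtl1 in KO1 ended in 1 of 13 alternatives, without KO1 replicate 1, and the call of Gm17639 in the mean of the lines ended in 9 of 12. The mean of the lines, -0.37 ± 0.08 at Rtl1 and -0.31 ± 0.10 at Gm17639 on the log2 scale (SE), joins lines that differ from each other and describes neither.

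On either side of the cluster, few genes could be tested. Within 2 Mb of the span the tables hold 66 genes outside it, and 14 were tested. The nearest tested genes by midpoint, Slc25a29 and Dync1h1, lie 710 kb before and 1093 kb after the start of Meg3. In KO1, 2 of the 14 were called higher than wild type by edgeR and 0 lower, against 5 higher and 1 lower at an unadjusted p under 0.05, and 1 higher and 0 lower by DESeq2. Of all tested genes, edgeR called 3.46% higher and 6.34% lower in KO1. The median log2 fold change of the 14 was 0.35, against 0.01 over all tested genes. In KO2, edgeR called 1 higher and 1 lower and DESeq2 0 and 0, with a median of -0.08 against -0.01. Of all tested genes, edgeR called 5.01% higher and 3.97% lower in KO2. Between KO1 and KO2, edgeR called 5 higher in KO1 and 1 lower and DESeq2 1 and 1, with a median of 0.32 against 0.02. DESeq2 gave no adjusted p at Ccnk in KO1 against wild type, nor at Ccnk, Slc25a29, Dync1h1 and 1700001K19Rik between the lines. Its lower counts of calls are therefore no result against these genes. Of all tested genes, edgeR called 7.93% higher in KO1 and 11.4% lower between the lines. Of the 14, 11 have no gene opposite, and such genes had a median of 0.10 in KO1 over all 2560 tested. Of those 2560, edgeR called 4.26% in KO1, 4.26% in KO2 and 11.3% between the lines. The strand reading thus differs along with position, and its part in the medians and calls was not tested.

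The neighbours called in KO1 were Ccdc85c and Ccnk, which lie 1300 kb and 1346 kb before Meg3 and have no gene opposite. Ccdc85c, whose product belongs to a family of coiled-coil proteins of cell junctions, had 18 and 17 counts for wild type, 78 and 65 for KO1, and 18 and 17 for KO2. KO1 stood apart from all other libraries, with a log2 fold change of 1.96 ± 0.25 (edgeR adjusted p 1.82e-06) from wild type, while KO2 was at -0.01 ± 0.34 (adjusted p 0.992). Ccnk, a cyclin that partners the transcription kinases CDK12 and CDK13, had 14 and 12 counts for wild type, 33 and 34 for KO1, and 10 and 8 for KO2. It was higher in KO1 (1.29 ± 0.31, edgeR adjusted p 0.00575), a call that ended without WT replicate 2 or without KO1 replicate 2, where the highest adjusted p was 0.0752. Both KO2 libraries of Ccnk were below wild type, at -0.53 ± 0.42 (adjusted p 0.499 by edgeR). In the mean of the lines, Ccdc85c (0.97 ± 0.27, edgeR adjusted p 0.0206) and the creatine kinase gene Ckb (0.74 ± 0.23, adjusted p 0.0480) were called higher. Both of these calls ended without WT replicate 1 or 2 or KO1 replicate 1, and that of Ckb also without KO1 replicate 2 or KO2 replicate 1. Both also ended under DESeq2, and that of Ckb with no filter and with a replicate block; Ckb was named after its value was seen.

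Closer to the span, Degs2, a sphingolipid desaturase gene opposite the actin regulator gene Evl, was higher in KO2, at 0.35 ± 0.11 (edgeR adjusted p 0.0484), and this call ended in 9 of 13 alternatives: each one without a WT or a KO2 library, the one without KO1 replicate 2, DESeq2, the replicate block, no filter and the fit of the contrast's groups alone. The predicted gene Gm17111 was lower in KO2 (-0.36 ± 0.10, edgeR adjusted p 0.0191), a call that ended without WT replicate 2, without KO2 replicate 2, under DESeq2 and in the fit of the contrast's groups alone; it was named after its value was seen. Between the lines, 1700001K19Rik was higher in KO1 than in KO2 (log2 1.95 ± 0.47, adjusted p 0.00336 by edgeR) and A230087F16Rik, opposite the kinase gene Cdc42bpb, was lower in KO1 (-0.29 ± 0.07, adjusted p 0.00454). The call of 1700001K19Rik ended without KO2 replicate 1 and that of A230087F16Rik without KO1 replicate 1. Slc25a29, a mitochondrial carrier gene, and Dync1h1, the heavy chain of cytoplasmic dynein, were higher in KO1 than in KO2, at 0.94 ± 0.33 (adjusted p 0.0436 by edgeR) and 1.20 ± 0.40 (adjusted p 0.0348). Each of these calls ended without KO2 replicate 1 or 2, that of Slc25a29 also without KO1 replicate 1, and that of Dync1h1 also without KO1 replicate 2. Both ended with no filter on low counts, and that of Slc25a29 also with a replicate block and in the fit of the contrast's groups alone. Of a list of 21 flanking genes, chosen with earlier results of these data known, 6 were tested by the counted gene. Of these, 3 (Degs2, Slc25a29 and Dync1h1) were called in any contrast. Whether the members differ more than their neighbours was not tested.

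**Figure D4:**
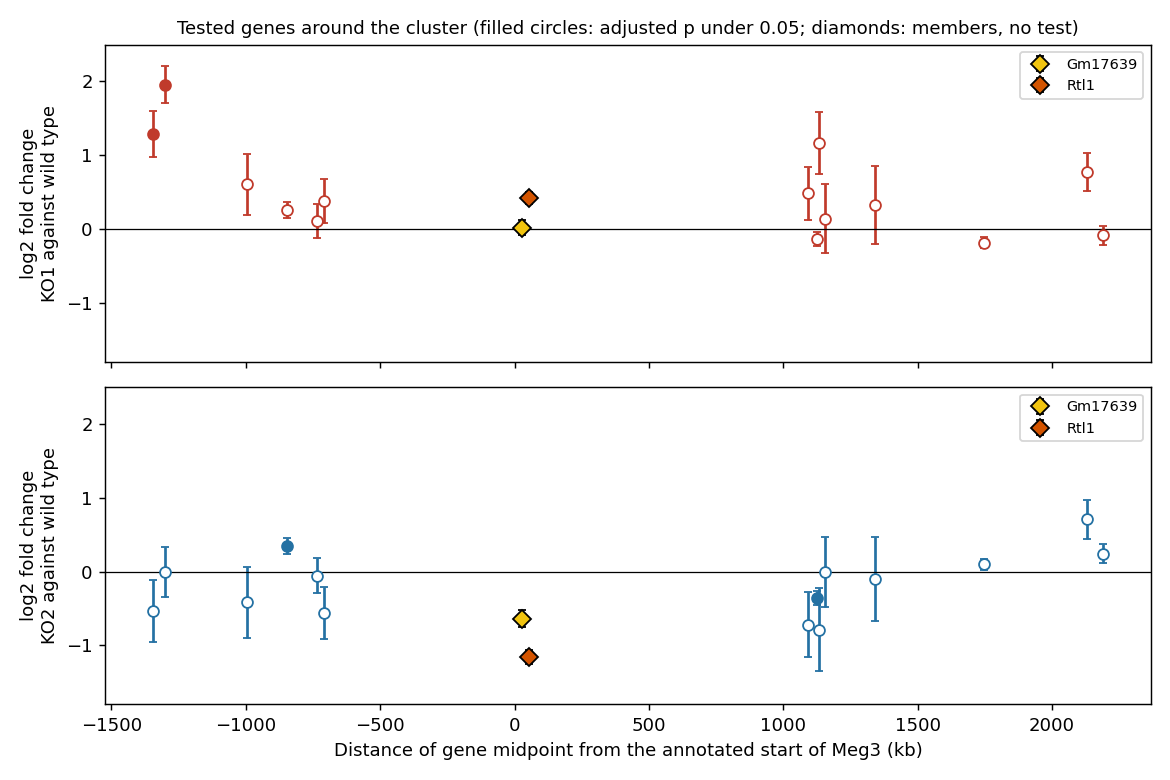
Log2 fold change of tested genes within 2 Mb of the cluster and of Rtl1 and Gm17639, plotted against distance from the annotated start of Meg3 in kb, for KO1 and KO2 against wild type, with standard errors of the fit as bars; filled circles are called genes and diamonds the members. Rtl1 is at 0.42 in KO1 and -1.16 in KO2, and no tested gene other than the members lies between 710 kb before and 1093 kb after the start.

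Other imprinted genes, from a list of 56 outside the cluster, were called in both directions. The list was chosen with earlier results of these data known. Its counts of calls and the p-values of its genes are therefore given as description and not read as support. By the counted gene, 13 were tested. In KO1 4 were called higher than wild type by edgeR and 0 lower (5 and 0 at an unadjusted p under 0.05, and 2 and 0 by DESeq2). Over all tested genes, edgeR called 3.46% higher and 6.34% lower in KO1. In KO2, edgeR and DESeq2 each called 1 higher and 1 lower, beside 5.01% and 3.97% of all tested genes by edgeR. Between KO1 and KO2, edgeR called 5 higher in KO1 and 1 lower and DESeq2 4 and 0, beside 7.93% and 11.4% of all tested genes by edgeR. The median log2 fold change was 0.36 in KO1 and -0.25 in KO2, beside 0.01 and -0.01 over all tested genes. By the gene opposite, 8 were tested, of which 1 was higher and 2 lower in KO1, and 0 higher and 2 lower in KO2 by edgeR (1 and 2 at an unadjusted p under 0.05, and 0 and 2 by DESeq2). Among all tested genes with a gene opposite, edgeR called 15.5% in KO1 and 13.9% in KO2. The 2 readings share genes. The gene called higher in KO1, Commd1, and 1 of the 2 called lower in KO2, Copg2, are also among those called by the counted gene. The called genes were spread over several domains and are given by the strand on which they were counted.

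Copg2, a coat protein gene opposite the paternally expressed gene Mest, was at 934 ± 3.73 CPM for wild type, 933 ± 8.66 for KO1 and 519 ± 10.2 for KO2 (SD, n = 2 each), a log2 fold change of -0.85 ± 0.06 in KO2 (edgeR adjusted p 6.02e-11). As at Gm17639, KO1 was at the wild type level and KO2 below it. Grb10, which encodes an adaptor of the insulin receptor, was higher in both lines, at 18.9 ± 4.49, 63.2 ± 19.7 and 75.1 ± 10.4 CPM (SD, n = 2 each), with edgeR adjusted p of 2.38e-05 and 1.27e-06. Commd1, opposite its imprinted neighbour Zrsr1, was higher in KO1 (0.67 ± 0.12, edgeR adjusted p 0.000373) and not called in KO2 (-0.27 ± 0.14, adjusted p 0.260). Gnas, counted on the strand of AF085738, was higher in KO1 (0.62 ± 0.15, edgeR adjusted p 0.00572), a call that ended without KO1 replicate 1 and under DESeq2. AF085738, which is opposite the signalling gene Gnas, was lower in both lines, at -0.63 ± 0.05 and -0.21 ± 0.05 (edgeR adjusted p 4.40e-11 and 0.00171). AL672259.1, opposite the brain-expressed gene Nnat, was lower in KO1, at 36.2 ± 6.58 CPM in wild type and 4.10 ± 1.06 in KO1 (SD, n = 2 each; edgeR adjusted p 8.03e-07). In KO2 it was at 45.6 ± 6.14 CPM (adjusted p 0.427). The other called genes of the list by the counted gene were H13, a signal peptide peptidase gene, which was higher in KO1 (0.73 ± 0.22, edgeR adjusted p 0.0285), and 2 genes called between the lines. These were Plagl1, a zinc finger gene (0.62 ± 0.20, edgeR adjusted p 0.0290), and Mest (-0.69 ± 0.21, adjusted p 0.0203). All 3 were named after their values were seen. The call of H13 in KO1 ended without either library of WT or of KO1, that of Plagl1 without any library of KO1 or KO2, and that of Mest without either KO1 library or without KO2 replicate 2. All 3 of these calls also ended under DESeq2, and those of H13 and Plagl1 with no filter on low counts.

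Among 29 genes for factors that maintain imprints or modify chromatin, 15 were tested by the counted gene and 4 by the gene opposite. By the counted gene, Nsd1 alone was called, at 0.94 ± 0.27 in KO1 (edgeR adjusted p 0.0230), and 0 of the 15 were called in KO2 (3 at an unadjusted p under 0.05, and 0 by DESeq2). Of all tested genes, edgeR called 9.79% in KO1 and 8.98% in KO2. With so few genes in the list, no lack or excess of calls is read from this. This list too was chosen with earlier results of these data known, so the p-values of its genes are not read as support. The call of Nsd1 ended without WT replicate 1, without WT replicate 2, without KO1 replicate 1 and under DESeq2. Nsd1 had 21 and 25 counts for wild type, 55 and 38 for KO1, and 27 and 21 for KO2, and on the strand opposite to its mRNA these do not check the knockout. By the gene opposite, Gm16706, which lies opposite the Polycomb gene Suz12, was higher in KO1 (0.33 ± 0.06) and KO2 (0.85 ± 0.05), with edgeR adjusted p of 0.000112 and 1.54e-12. Gm17629, opposite the Polycomb methyltransferase gene Ezh2, was lower in KO1 (-0.60 ± 0.07, edgeR adjusted p 9.53e-08) and not called in KO2 (-0.15 ± 0.06, adjusted p 0.143). Among all tested genes with a gene opposite, edgeR called 15.5% in KO1 and 13.9% in KO2. KO1 and KO2 share the wild type libraries, so their differences from wild type are not independent.

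Across the 6 libraries, Rtl1 and Gm17639 had a Pearson correlation of 0.960 on the log2(CPM + 1) scale. Of 2554 tested genes outside the span with a mean of at least 20 CPM, those most like Rtl1 were Xist (opposite Tsix, r 0.998), Nol7 (opposite Ranbp9, 0.997), Lama5 (0.992), Pigf (opposite Rhoq, 0.989) and Mylpf (0.988). Among the 5 most like Gm17639 were Gm10135 (opposite Slain2, 0.989), Prss53 (opposite Zfp646, 0.984), Ccnb2-ps (0.984) and Gm16258 (0.975). The 2 sets share no gene. With 6 libraries in 3 groups and 2554 genes compared, high values arise easily, and these describe likeness in these libraries alone.

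Total counts ranged from 1150089 to 1285487 per library, and AY036118 took 32.3% to 37.2% of them. By the reading of strand above, marker levels by the counted gene come from the strand opposite to the marker mRNA. Those levels, and counts of 0, do not show whether a marker is expressed. Of 14 ES cell markers, all 13 found by the counted gene had counts, with summed levels of 392 to 399 CPM for wild type, 393 to 449 for KO1, and 420 to 431 for KO2. By the gene opposite, 2 were seen, mostly Tdh, at 4325 to 4466 CPM for wild type, 2018 to 2108 for KO1, and 5161 to 5203 for KO2, an order of groups that is the reverse of that at Rtl1. Fibroblast markers by the counted gene (10 genes, 4 of them at 0, among them Col1a2, Col3a1 and Thy1) summed to 70.6 to 76.1 CPM, 80.9 to 94.7 and 66.0 to 82.9 in the same order. By the gene opposite, 3 of them summed to 1305 to 1354 CPM, 1215 to 1300 and 1180 to 1223. Of these 3, Apol7d, opposite Fn1, held most of the sum, at means of 1181, 1240 and 1189 CPM. Syn3, opposite Timp3, was at 74.0, 14.4 and 10.2 CPM, and Gm17329, opposite Col1a1, at 74.1, 2.87 and 2.19. Endoderm markers by the counted gene (13 table entries, 6 at 0, among them Sox17, Foxa2 and Gata6) summed to 12.2 to 14.5 CPM, 10.9 to 16.2 and 19.8 to 21.4. The part of these differences in the values of the cluster was not tested.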

How the data were processed

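Gene expression was measured in 6 RNA libraries, and the 44 chromatin samples of the series were not analysed here. The authors deposited raw counts per gene for each library, not normalized. Paired fragments were counted over exons with featureCounts 2.0.1, strand setting 1, on the GENCODE mouse version 1 annotation of mm9, per the file headers. The submitters' processing notes name Trim Galore 0.6.4, STAR 2.5.4b and featureCounts 2.0.0, without their roles. Spans and strands of all 37310 genes equalled that annotation. Totals were 1150089 to 1285487 counts per library. For a gene at 0, an expected count of up to 3 was allowed (95% upper limit).

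For each gene, the gene opposite was the other-strand gene sharing most exon bases with it, 50 or more (bedtools 2.31.1). Counts were fitted with edgeR 4.0.16 in R 4.3.3: filterByExpr (minimum count 10), TMM factors and a robust quasi-likelihood fit of 3 group means over all 6 libraries. The 5034 genes left were adjusted together by the Benjamini-Hochberg method. CPM used effective library sizes. Ratios of low counts have exact 95% intervals, and shares have Wilson intervals. DESeq2 1.42.0 was an alternative, beside other scalings, no filter, fits within the groups of a contrast, a replicate block and leaving out each library. Replicates differed by more than sampling noise.

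The members and lists were chosen with earlier results of these data known. Named genes were the members, genes inside the span with at least 10 counts, and, of the neighbourhood and each list, up to 4 called genes with the smallest adjusted p. To these were added the 5 genes most correlated with Rtl1 and with Gm17639. Any other gene is marked as named after its value was seen. Of the genes so chosen, 1 is not reported here.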

Additional observations from a re-analysis of the deposited data

Results flagged for a closer look

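KO1 and KO2 differed from each other at several genes in and around the cluster, and each value here is KO1 against KO2. At Rtl1, which was chosen with the counts known, the difference is a description: edgeR's fit over all genes called it, and nothing is read from that call. The ratio of mean CPM was 2.98 at Rtl1, with all KO1 libraries above and all KO2 libraries below wild type. The same held at AC121784.2, with a ratio of 3.75, and AC121784.1, with a ratio of 4.73, which had too few counts to be tested and rest on 37 and 26 counts in all. At both, the intervals of each line against wild type include equal levels. For KO1 over KO2, the scaled ratios of summed counts were 3.84 (exact 95% interval 1.40 to 13.1) and 4.81 (1.36 to 25.9). At AC121784.4 and AC121784.3 the matching intervals, 0.264 to 2.16 and 0.756 to 8.36, include equal levels. All of these intervals cover counting error only.

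Neighbours of the cluster differed in edgeR's quasi-likelihood fit, with p-values adjusted by Benjamini-Hochberg. The log2 differences were 1.82 at Ccnk (adjusted p 0.000200), 1.96 at Ccdc85c (6.77e-07), 0.94 at Slc25a29 (0.0436), 1.20 at Dync1h1 (0.0348), 1.95 at 1700001K19Rik (0.00336) and -0.29 at A230087F16Rik (0.00454).

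Of imprinted genes elsewhere, by the same test, the log2 differences were 0.85 at Copg2 (adjusted p 1.71e-11), 0.94 at Commd1 (2.10e-06), 1.12 at Gnas (4.48e-06), -0.42 at AF085738 (4.16e-08) and -3.43 at AL672259.1 (2.10e-08). Of the regulators, they were 0.89 at Nsd1 (0.0187), -0.52 at Gm16706, opposite Suz12 (1.21e-08), and -0.45 at Gm17629, opposite Ezh2 (7.78e-06). The call of Nsd1 ended without KO1 replicate 1, without KO2 replicate 2 and under DESeq2. Both lists were chosen with earlier results of these data known, so these p-values are not read as support.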

How the results depend on the processing

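Rtl1 kept its direction in every contrast under all alternatives run: 0.28 to 0.54 (log2) for KO1, -1.19 to -1.11 for KO2, -0.44 to -0.32 for the mean of the lines and 1.44 to 1.70 for KO1 against KO2. Gm17639 ranged from -0.69 to -0.56 for KO2, from -0.37 to -0.26 for the mean and from 0.54 to 0.77 for KO1 against KO2, and in KO1, where it was not called, from -0.10 to 0.12. Counts of called genes moved more. DESeq2's Wald test called 207 genes in KO1, 170 in KO2, 115 in the mean and 417 between the lines, against 493, 452, 333 and 971 in edgeR; the cause was not tested. Leaving out a library gave 280 to 591 calls in KO1, with 280 and 303 without KO1 replicate 1 and 2, 328 to 435 in KO2, 213 to 362 in the mean, with 213 and 218 without WT replicate 1 and 2, and 561 to 1065 between the lines, with 561 and 643 without KO1 replicate 1 and 2.

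A window of 1 Mb in place of 2 Mb left 0 called neighbours in KO1 (from 2), 0 in the mean (from 2) and 3 between the lines (from 6), with 8 genes tested in place of 14 (in edgeR; 2 and 2 at an unadjusted p under 0.05 in KO1 and the mean, and 0 and 0 by DESeq2). Read by the gene opposite, called regulators were 2 in KO1 (from 1), 1 in KO2 (from 0), 2 in the mean (from 0) and 2 between the lines (from 1), and called flanking genes were 0 between the lines (from 2; 1 at an unadjusted p under 0.05, and 0 by DESeq2), with 2 genes tested. By Spearman's correlation, 0 of the 5 genes most like Rtl1 and 1 of the 5 most like Gm17639 were among the top 5. However, 17 genes for Rtl1 and 6 for Gm17639 were at or above the fifth value, with ties ordered by gene identifier. The overlap thus depends on how ties were broken, and nothing is read from it. The replicate numbers did not pair the libraries (correlations of deviations 0.0284, 0.0025 and 0.0012); with a replicate block, calls were 482, 416, 321 and 935, and the members moved by under the spread between libraries. The fit within the groups of a contrast cannot be made for the mean of the lines, which needs all 3. At 1150089 to 1285487 counts per library, genes of few counts, among them 4 of the 6 members, were below what the fit can test.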
